A study of Ursus arctos with 12 samples.

Results

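Hibernating bears fast and lie almost still for months, and NAD metabolism, which meters fuel use, was followed here through its genes in their muscle. The genes described are the 7 sirtuins, SIRT1 to SIRT7, and 3 genes of NAD synthesis, NAMPT, NMNAT1 and NMRK2. They were chosen by gene symbol, 10 names among the 30249 rows of the read count table. A row was found for 9 of the 10. NMRK2 had none under its symbol and was not analysed here. Muscle RNA was sequenced from 6 free-ranging brown bears (Ursus arctos), 2 to 3 years old, each biopsied in the vastus lateralis of the thigh in winter, during hibernation, and again in summer, when active. This gave 6 winter and 6 summer libraries, with no treatment or genetic change in either season. Winter was compared with summer within each bear.

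NAD is a carrier of electrons and is also consumed as a substrate. Sirtuins remove acetyl and other acyl groups from proteins, spending a molecule of NAD and releasing nicotinamide each time, so that their activity follows the NAD supply. SIRT1, SIRT6 and SIRT7 work mainly in the nucleus, SIRT2 mainly in the cytosol, and SIRT3, SIRT4 and SIRT5 in mitochondria. Most NAD of muscle is remade from the released nicotinamide. NAMPT carries out the rate-limiting step of this salvage route, which yields nicotinamide mononucleotide, and NMNAT1 turns that product into NAD in the nucleus. The kinase NMRK2, known from skeletal muscle, enters the same route from nicotinamide riboside.

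Depth ran from 20191068 to 27283155 counted reads per library in summer and from 16742406 to 32140160 in winter. Levels are given as counted reads scaled to a common library size (CPM) after TMM scaling, an adjustment for differences in library composition, and differences as log2 of winter over summer, with the standard error (SE) of the fit. The summed level of 7 fibre genes, among them ACTA1, CKM and TTN, ran from 100299.5 to 172698 CPM in summer and from 101399 to 140298 in winter, with 0 of the 7 absent from any library. On the second principal component of all tested genes, which held 14.6% of the variance, 11 libraries scored −29.4 to 8.16 and the winter library of bear 1509 scored 98.6. CPM does not correct for transcript length, so levels were ranked between genes only to choose the uncalled genes named per list.

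SIRT1 and NAMPT were higher in winter in every bear, SIRT3 was lower in every bear, and SIRT5 was lower in 5 of 6. SIRT2, SIRT4, SIRT6, SIRT7 and NMNAT1 were not called. All 9 genes passed the minimum of 30 reads over the 12 libraries, and at an adjusted p below 0.05 (edgeR's quasi-likelihood test with the bear as a block) 2 of the 9 were higher and 2 lower in winter. Over all 17290 genes tested, 19.6% were higher and 21.2% lower by the same call, 40.8% in either direction, so the members' counts were near the background. By the study's stricter limits (adjusted p below 0.01 and fold above 1.3 or below 0.77) 2 members were higher and 1 lower, beside 25.7% of all genes in either direction. The median log2 difference was 0.00 over the 9 members and −0.01 over all genes. Winter and summer libraries did not overlap for 3 members, against 17.3% of all genes, and 3 members moved in one direction in 6 of 6 bears, against 37.4% of all genes.

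**Figure D1:**
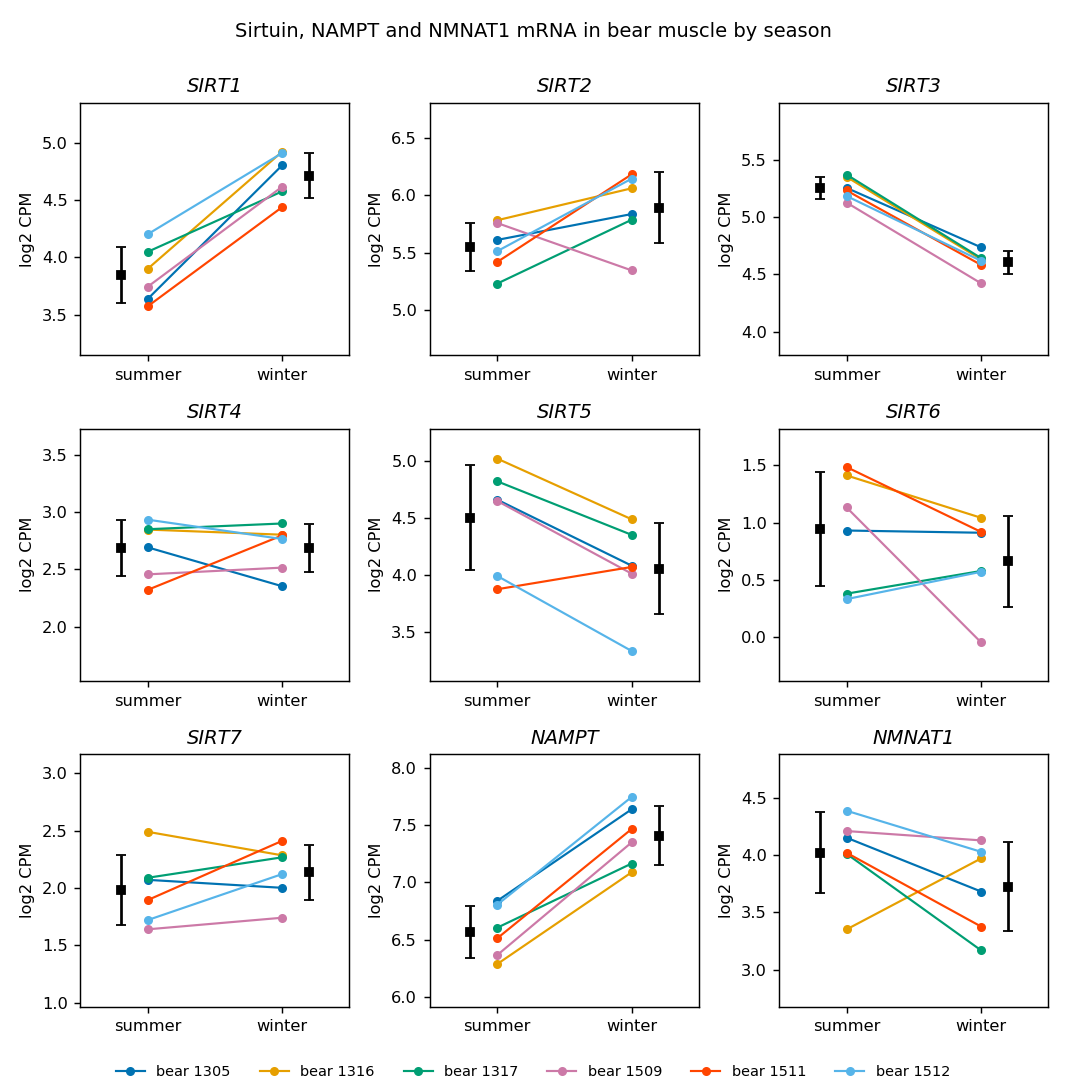
Level of each of the 9 genes (log2 CPM, vertical axis, the same span of 2.2 log2 units in every panel) in summer and winter; each coloured line joins the libraries of 1 bear, and black squares with bars are the season's mean and SD over 6 bears. For SIRT1 and NAMPT every line rises and for SIRT3 every line falls, while each other panel holds both rising and falling lines.

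SIRT1, a nuclear deacetylase whose known targets include the coactivator PGC-1α and the FOXO factors, was counted at 296 to 468 reads per library in summer and 359 to 921 in winter. In summer its lowest, median and highest levels were 11.8, 14.1 and 18.3 CPM, and in winter they were 21.6, 26.1 and 30.2 CPM. The lowest winter library, from bear 1511, thus lay above the highest summer library, from bear 1512. The mean rose from 3.85 ± 0.24 to 4.71 ± 0.20 log2 CPM (6 bears, SD), with a fitted log2 difference of 0.86 (SE 0.11, adjusted p = 0.000238) or 1.82-fold. The gain differed between animals, from 0.53 in bear 1317 to 1.17 in bear 1305. Bear 1511 held the lowest SIRT1 level in both seasons.

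Neither of the remaining nuclear sirtuins was called. SIRT6, a deacylase of histone tails with roles in DNA repair and glucose metabolism, was counted at only 16 to 68 reads per library. It lay at 1.17 to 2.71 CPM in summer (median 1.96) and 0.883 to 1.97 in winter (median 1.6), with a log2 difference of −0.29 (SE 0.24, adjusted p = 0.362). Single bears ran from −1.18 in bear 1509 to 0.24 in bear 1512. SIRT7, a nucleolar deacetylase tied to ribosomal RNA synthesis, lay at 3.03 to 5.53 CPM in summer (median 3.87) and 3.26 to 5.23 in winter (median 4.50). Its log2 difference was 0.16 (SE 0.16, adjusted p = 0.461), and the seasons overlapped over nearly their whole range.

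SIRT2, a tubulin deacetylase of the cytosol, lay at 37.4 to 55.0 CPM in summer (median 47.2) and 40.6 to 72.6 in winter (median 61.9). It was higher in winter in 5 of 6 bears, by 0.23 to 0.77 on the log2 scale, and lower in bear 1509, at −0.41. The log2 difference of 0.34 (SE 0.15) had an adjusted p of 0.0857 and was not called. Without bear 1509 it was 0.50 with an adjusted p of 0.00599, and DESeq2 without the replicate block gave an adjusted p of 0.0436.

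Of the mitochondrial sirtuins, SIRT3 showed the most uniform change of all 9 genes. SIRT3 is the main deacetylase of the mitochondrial matrix, with targets in the citric acid cycle, the respiratory chain and fatty acid oxidation. It was counted at 387 to 1046 reads per library and lay at 34.9, 37.8 and 41.3 CPM (lowest, median, highest) in summer and at 21.4, 24.6 and 26.6 CPM in winter. No winter library reached the lowest summer library. The mean fell from 5.25 ± 0.09 to 4.61 ± 0.10 log2 CPM (6 bears, SD), with a fitted log2 difference of −0.65 (SE 0.09, adjusted p = 0.000407) or 0.638-fold. Single bears lay between −0.73 and −0.52, a span of differences narrower than for any other member.

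SIRT5, which removes succinyl, malonyl and glutaryl groups from lysines, spread widely between bears within each season. Its levels were 14.6, 25.1 and 32.3 CPM (lowest, median, highest) in summer and 10.03, 16.8 and 22.3 CPM in winter, so the seasons overlapped. In summer bears 1511 and 1512 lay at 14.6 and 15.8 CPM and the other bears at 24.98 CPM or above. Within bears it was lower in winter in 5 of 6, at −0.66 to −0.47 on the log2 scale, and higher in bear 1511, at 0.19. The log2 difference was −0.45 (SE 0.13, adjusted p = 0.0172), or 0.732-fold. This call rested on the pairing by bear, since without the replicate block the log2 difference was −0.46 with an adjusted p of 0.102, and it was lost without bear 1512 (adjusted p = 0.0595). SIRT4, a mitochondrial lipoamidase and ADP-ribosyltransferase that restrains glutamate dehydrogenase, lay at 4.91 to 7.55 CPM in summer (median 6.74) and 5.02 to 7.38 in winter (median 6.78). Its log2 difference was 0.00 (SE 0.15, adjusted p = 0.993), with 3 bears higher and 3 lower.

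NAMPT, the enzyme that sets the pace of NAD salvage, was counted at 1634 to 6582 reads per library. Its lowest, median and highest levels were 77.9, 94.1 and 114 CPM in summer and 136, 170 and 214 CPM in winter, and the seasons did not overlap. The mean rose from 6.57 ± 0.23 to 7.41 ± 0.26 log2 CPM (6 bears, SD), with a fitted log2 difference of 0.84 (SE 0.10, adjusted p = 0.000142) or 1.79-fold, with single bears from 0.56 in bear 1317 to 0.98 in bear 1509. Bear 1316 held the lowest NAMPT level in both seasons. NMNAT1, the nuclear enzyme of the last step, was not called. It lay at 10.1 to 20.8 CPM in summer (median 16.9) and 8.90 to 17.4 in winter (median 14.2), with a log2 difference of −0.30 (SE 0.18, adjusted p = 0.196). Winter was lower in 5 of 6 bears and higher, by 0.62, in bear 1316, whose summer library held the lowest summer level. Without bear 1316 the log2 difference was −0.47 with an adjusted p of 0.0243. In the RefSeq gene table of the later assembly UrsArc2.0 the NMNAT1 gene overlaps a neighbour, LZIC or RBP7, neither of which was called. LZIC stood at a log2 difference of 0.09 (adjusted p = 0.546) and RBP7 at −0.56 (adjusted p = 0.577). The authors counted reads by strand. The spans of NAMPT and SIRT4 also overlap a neighbour each.

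**Figure D2:**
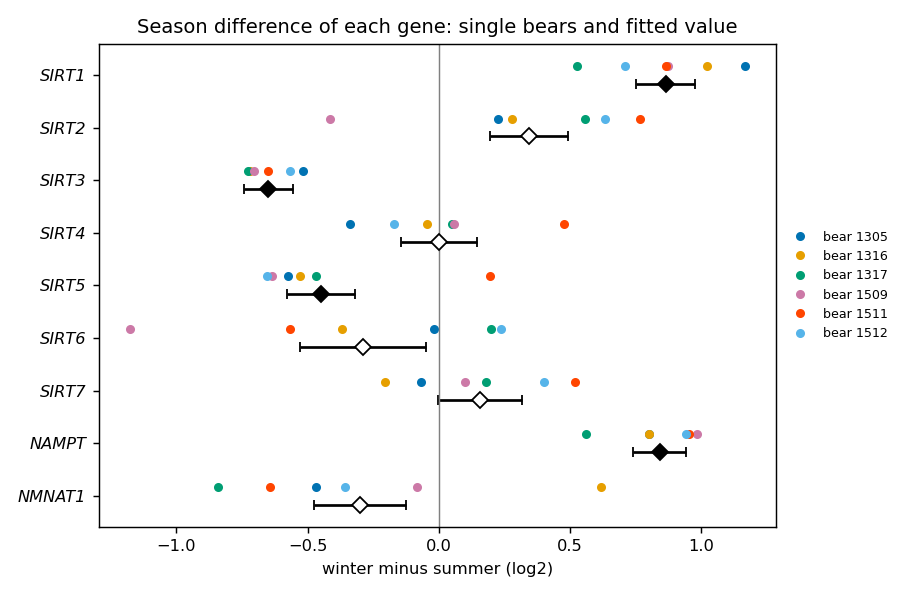
Winter minus summer difference (log2, horizontal axis) of each gene; coloured points are single bears (log2 CPM) and diamonds with bars are the fitted log2 difference and its standard error, filled where the adjusted p was below 0.05. SIRT1 and NAMPT lie to the right of 0 and SIRT3 to the left in all 6 bears, and the point of bear 1511 for SIRT5, of bear 1509 for SIRT2 and of bear 1316 for NMNAT1 lie across 0 from the rest.

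Because read counts of a library share its depth and scaling, 5 pairs of members were also described as a ratio of reads within each library, without a test. The direction of SIRT1 over SIRT3 and of SIRT1 over SIRT5 follows from the calls of these genes above and adds no support to them. NAMPT over NMNAT1 carries the called rise of NAMPT and likewise adds no support. There were 0.315 to 0.505 SIRT1 reads per read of SIRT3 in summer (median 0.373) and 0.904 to 1.22 in winter (median 1.10). The ratio rose in 6 of 6 bears, by 2.40-fold to 3.36-fold. NAMPT reads per read of NMNAT1 ran from 4.47 to 7.71 in summer (median 5.86) and from 8.72 to 17.2 in winter (median 14.4), higher in winter in 6 of 6 bears by 1.13-fold to 3.04-fold. The smallest rise was that of bear 1316. SIRT1 reads per read of SIRT5 ran from 0.459 to 1.16 in summer (median 0.559) and from 1.17 to 2.99 in winter (median 1.44), up in 6 of 6 bears. The seasons overlapped for SIRT1 reads per read of SIRT2, at 0.246 to 0.440 in summer (median 0.273) and 0.298 to 0.603 in winter (median 0.442), and 5 of 6 bears went up. For SIRT3 reads per read of SIRT5, 2 bears went up and 4 down, with 1.26 to 2.57 in summer (median 1.49) and 1.11 to 2.44 in winter (median 1.38).

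**Figure D3:**
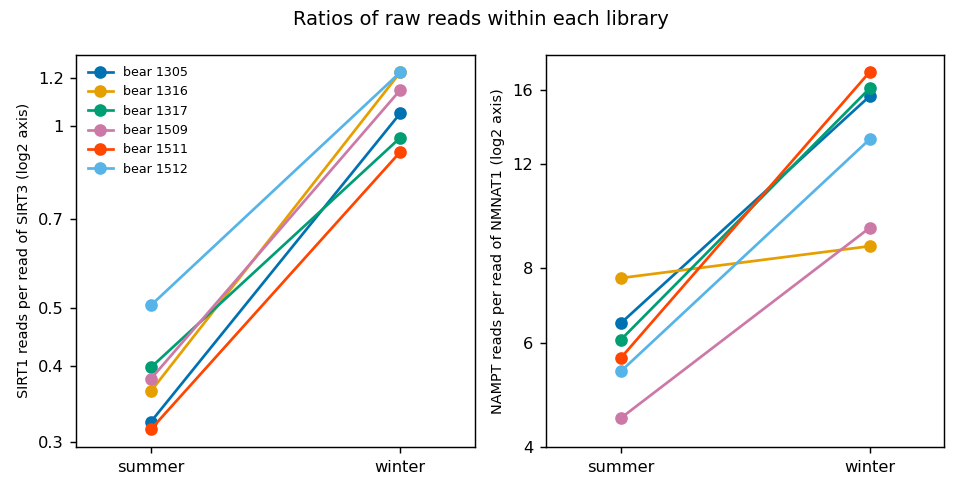
Ratio of raw reads within each library (vertical axis, log2 scale) in summer and winter for SIRT1 over SIRT3 (left) and NAMPT over NMNAT1 (right); each line joins the libraries of 1 bear. The winter libraries lie above all summer libraries in both panels, and bear 1316 has a nearly level line for NAMPT over NMNAT1.

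Further genes of NAD metabolism and of sirtuin action were read from lists, 82 genes in all, of which 75 were tested, 9 being higher and 18 lower in winter. Their median log2 difference was −0.02, beside −0.01 for all genes tested. By the same call 19.6% of all genes were higher and 21.2% lower, the background for every list below. Among 18 other genes of NAD synthesis and precursor handling, 14 were tested, 2 were higher and 2 lower, with a median of −0.04. NMNAT3, the mitochondrial form of NMNAT1, and NMRK1, the widely expressed relative of NMRK2, stood at −0.32 (adjusted p = 0.0809) and 0.06 (adjusted p = 0.782) and were singled out after their values were seen. PNP and NADSYN1, the members of this list with the highest mean level that were not called, stood at −0.03 and 0.00. IDO1, which opens the route from tryptophan and had 1 to 16 reads per library, was singled out because its call depended on a bear. It stood at −1.54 (adjusted p = 0.0725), and at −1.96 (adjusted p = 0.0177) without bear 1509 and −1.94 (adjusted p = 0.0458) without bear 1511. IDO2, with 0 to 57 reads per library and named after its value was seen, stood at −0.70 (adjusted p = 0.0716), lower in 6 of 6 bears. HAAO, KYNU and AFMID, likewise named afterwards, stood at −0.06 (adjusted p = 0.914), 0.50 (adjusted p = 0.527) and 0.48 (adjusted p = 0.161). In the same list KMO, TDO2 and ACMSD had 0, 0 and 1 read in all 12 libraries together.

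The calls in this list outside NT5E came from scarce transcripts. SLC22A13, a transporter of nicotinate, had 1 to 48 reads per library and rose from 0.0364 to 0.525 CPM in summer to 0.773 to 1.96 CPM in winter, without overlap (log2 difference 2.71, SE 0.45, adjusted p = 0.000947). NMNAT2, the cytosolic form best known from neurons, had 2 to 22 reads per library and stood at 1.28 (adjusted p = 0.0259), higher in 6 of 6 bears. QPRT, which makes the NAD precursor from quinolinate, had 3 to 22 reads and stood at −1.08 (adjusted p = 0.0301), lower in 6 of 6. Neither call held in DESeq2 with the replicate block (adjusted p = 0.0525 for NMNAT2 and 0.0691 for QPRT), and both were lost without bear 1305 (0.0519 and 0.0519), 1316 (0.0704 and 0.0728), 1317 (0.0563 and 0.0653) or 1512 (0.0569 and 0.0773).

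NT5E, a surface nucleotidase (CD73) that acts on extracellular nucleotides, fell from 32.7 to 75.6 CPM in summer to 11.7 to 21.6 CPM in winter, with a log2 difference of −1.70 (SE 0.22, adjusted p = 0.000215). CD38, an NAD glycohydrolase of the cell surface, had a log2 difference of −1.11 (SE 0.18, adjusted p = 0.000877) and was lower in 6 of 6 bears, though its seasons overlapped at 1.76 to 5.84 and 1.13 to 2.59 CPM. Both genes of nicotinamide disposal were lower in winter. NNMT, which methylates nicotinamide, had a log2 difference of −1.60 (SE 0.44, adjusted p = 0.0147) and was lower in 5 of 6 bears, from −3.39 to 0.00, but without bear 1512 its adjusted p was 0.059. AOX1, an aldehyde oxidase that oxidises the methylated product and was matched by its NCBI gene ID, stood at −0.40 (adjusted p = 0.0161), lower in 6 of 6, and at an adjusted p of 0.0524 without bear 1317.

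NT5E, CD38 and NNMT are also made by connective tissue, vessel or immune cells, whose markers moved in the same direction. Of 6 fibroblast markers 5 were lower and 0 higher, and their summed level was 4176 to 11269 CPM in summer and 269 to 1623 in winter. Of 5 endothelial markers 4 were lower, with sums of 577 to 916 and 381 to 449 CPM, and of 4 macrophage and leukocyte markers 2 were lower, with sums of 30.3 to 61.5 and 18.7 to 40.2 CPM. Adipocyte markers gave 0 calls of 4, with sums of 16.4 to 486 and 8.27 to 183 CPM. None of the fibroblast, endothelial or leukocyte markers was at 0 in any library. The part of these cells in the lower NT5E, CD38 and NNMT was not tested, and in a biopsy fewer cells of a type cannot be told apart from less RNA per cell. The fibre markers gave 1 higher and 3 lower of 7, and the slow and fast fibre lists 0 higher and 1 lower each of 5 tested.

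Of the other NAD-consuming enzymes, 17 were tested, 5 being higher and 4 lower in winter, with a median of 0.04. By the same call 19.6% of all genes were higher and 21.2% lower. Both tankyrases, which attach chains of ADP-ribose to proteins such as axin, rose in 6 of 6 bears. TNKS went from 27.9 to 39.2 CPM in summer to 45.5 to 64.2 CPM in winter (log2 difference 0.78, SE 0.11, adjusted p = 0.000409), and TNKS2 from 101 to 129 to 133 to 198 CPM (log2 difference 0.58, adjusted p = 0.00404), without overlap of the seasons for either. PARP16, of the endoplasmic reticulum, and BST1, a surface relative of CD38, were higher at 0.63 (adjusted p = 0.00624) and 0.67 (adjusted p = 0.0129). PARP14 and PARP12, both known as interferon-induced, were lower at −0.89 (adjusted p = 0.00239) and −0.59 (adjusted p = 0.019), as was PARP8 at −0.79 (adjusted p = 0.0434). The call of PARP12 was lost without bear 1512 (adjusted p = 0.0675), and that of PARP8 without any bear but 1509 (adjusted p from 0.089 to 0.125). PARP1, the DNA damage sensor and a main consumer of nuclear NAD, lay at 40.8 to 53.8 CPM in summer and 39.7 to 52.6 in winter, with a log2 difference of 0.05 (SE 0.11, adjusted p = 0.716), and PARP3 stood at 0.04 (adjusted p = 0.883).

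In the list that joins NAD phosphorylation, hydride transfer and NAD hydrolysis, 0 of 6 tested genes were higher and 3 lower in edgeR. At an unadjusted p below 0.05 also 0 were higher, and the median was −0.23. Over all genes 19.6% were higher and 21.2% lower, and a list of 6 is too short to set against these shares. NNT, the transhydrogenase of the inner mitochondrial membrane, lay at 287 to 737 CPM in summer and 208 to 394 in winter, a log2 difference of −0.69 (SE 0.19, adjusted p = 0.0131). NUDT13, a mitochondrial NADH hydrolase, fell from 36.1 to 54.3 CPM to 18.8 to 35.6 CPM (log2 difference −0.70, SE 0.11, adjusted p = 0.000817), and NUDT12, its peroxisomal relative, stood at −0.48 (adjusted p = 0.0198). The call of NUDT12 was lost without bear 1305, 1316 or 1317 (adjusted p from 0.0531 to 0.058). NADK2, the mitochondrial NAD kinase, named after its value was seen, stood at 0.28 (adjusted p = 0.118). NADK, the cytosolic NAD kinase, and SLC25A51, the carrier that brings NAD into mitochondria, stood at 0.03 (adjusted p = 0.861) and 0.07 (adjusted p = 0.713).

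Removal of ADP-ribose and direct regulation of SIRT1 gave few calls. ADPRH, which takes ADP-ribose off arginine, was lower at −0.48 (SE 0.11, adjusted p = 0.00671), 1 of 6 tested genes, while MACROD1 and OARD1 stood at 0.33 (adjusted p = 0.16) and −0.18 (adjusted p = 0.19). Without bear 1509 MACROD1 was called higher (0.48, adjusted p = 0.0427). Of 5 direct regulators of SIRT1, HIC1, a repressor of SIRT1 transcription, was the only one called, at −0.91 (SE 0.31, adjusted p = 0.0386), on 7 to 45 reads per library. Winter was lower in 5 of 6 bears, and it was not called without the replicate block (adjusted p = 0.0596) or without bear 1305 (0.0541), 1316 (0.115), 1509 (0.0836) or 1512 (0.106). CTBP1 and USP22 stood at 0.04 (adjusted p = 0.897) and 0.04 (adjusted p = 0.83). CCAR2, the inhibitor that binds SIRT1, named after its value was seen, stood at −0.15 (adjusted p = 0.352).

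**Figure D4:**
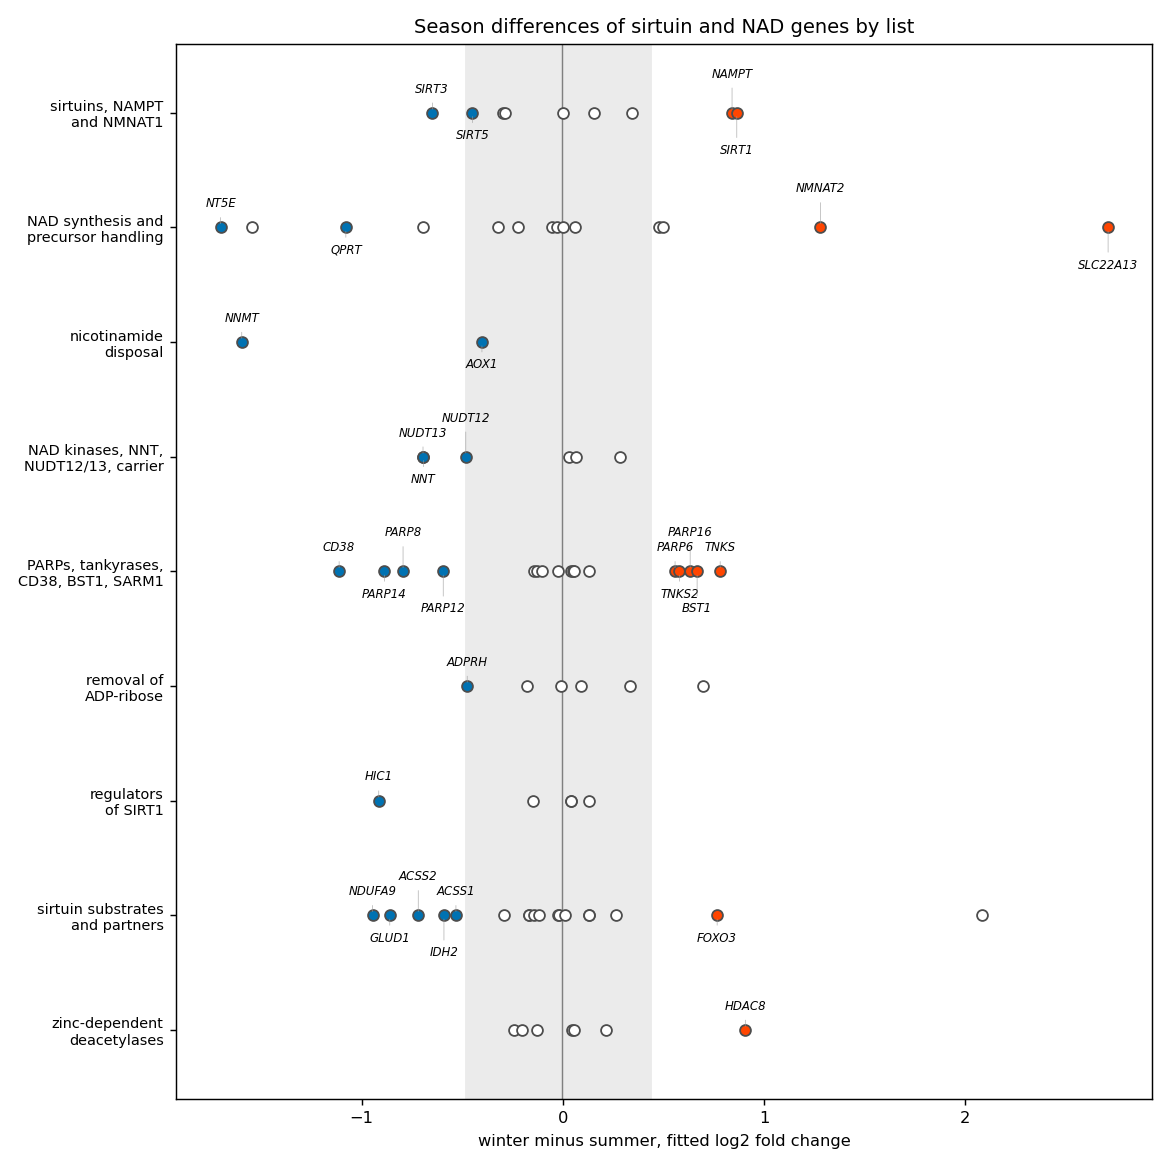
Fitted log2 difference of winter over summer (horizontal axis) of every tested gene, by list; filled points with names passed an adjusted p below 0.05 (orange higher, blue lower) and open points did not, the vertical line is the median of all 17290 genes and the grey band the span between their quartiles (−0.48 to 0.44). Filled points stand on both sides in the row of members and in those of NAD synthesis, of NAD-consuming enzymes and of sirtuin substrates, and on the left in that of NAD kinases, NNT and NUDT genes.

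Of 18 tested substrates and partners of sirtuins, 1 was higher and 5 lower in winter, beside 19.6% and 21.2% of all genes. The median log2 difference of the list was −0.13. All 5 lower genes encode metabolic enzymes. NDUFA9, a complex I subunit deacetylated by SIRT3, fell from 324 to 382 CPM in summer to 142 to 225 CPM in winter (log2 difference −0.95, SE 0.13, adjusted p = 0.000389). GLUD1, the glutamate dehydrogenase on which SIRT3 and SIRT4 act, fell from 122 to 176 CPM to 67.1 to 94.3 CPM (log2 difference −0.86, SE 0.13, adjusted p = 0.000636). ACSS2, the cytosolic acetyl-CoA synthetase activated by SIRT1, and IDH2, the mitochondrial isocitrate dehydrogenase activated by SIRT3, stood at −0.72 (adjusted p = 0.00599) and −0.59 (adjusted p = 0.017). IDH2 was lower in 5 of 6 bears. SOD2 and SDHA, 2 further SIRT3 substrates, stood at −0.12 (adjusted p = 0.518) and −0.29 (adjusted p = 0.0814).

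The substrate that rose was FOXO3, a transcription factor that SIRT1 deacetylates. It went from 52.7 to 91.4 CPM in summer to 99.8 to 134 CPM in winter, a log2 difference of 0.77 (SE 0.17, adjusted p = 0.00442), higher in 6 of 6 bears by 0.13 to 1.35. PPARGC1A, which encodes the SIRT1 target PGC-1α and is named here after its value was seen, varied widely between bears, from 11.6 to 44.3 CPM in summer and 16.1 to 35.8 CPM in winter, with a log2 difference of −0.02 (adjusted p = 0.943).

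The zinc-dependent deacetylases, which do not use NAD, gave 1 call of 7 and a median of 0.05. HDAC8 rose from 5.07 to 8.22 CPM in summer to 10.7 to 15.9 CPM in winter (log2 difference 0.91, SE 0.14, adjusted p = 0.000522), a change close in size to that of SIRT1. HDAC3 was higher in 6 of 6 bears, by 0.12 to 0.38, and its seasons did not overlap, yet its log2 difference of 0.22 had an adjusted p of 0.0881. Without the replicate block it was called (adjusted p = 0.0446). HDAC2 stood at −0.13 (adjusted p = 0.354).

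SIRT1 was taken as the member of largest fitted change, 0.86 beside 0.84 for NAMPT, a lead smaller than the SE of either that turned without bear 1305 (0.79 and 0.84) or bear 1316 (0.836 and 0.852). Genes whose median-centred log2 CPM over the 12 libraries lay nearest to it, among 13489 other tested genes with a symbol, included EPB41L5, TMEM131L, KDM5A and TNKS. Their root mean square distances from SIRT1 were 0.101, 0.109, 0.117 and 0.120 log2 units, and their own log2 differences 0.89, 0.80, 0.82 and 0.78. These genes were chosen by closeness over the same 12 libraries, so season differences of similar size follow from the choice. TNKS also stands in the list of NAD-consuming enzymes.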

How the data were processed

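The authors sequenced stranded poly-A libraries as single reads of 50 bases in 2 lanes, aligned them with TopHat to the brown bear assembly ASM358476v1 and assigned them to genes by strand with featureCounts. The submitters' processing notes give TopHat2 2.1.1 and featureCounts 1.6.2. The deposited values are raw counts, not normalized or filtered by the authors. The sources used here do not assign libraries to lanes. Seasons and bears came from the sample titles.

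Genes under 30 reads over the 12 libraries (0.019% of reads) were left out, which kept 17290. Counts were scaled by TMM and fitted by glmQLFit and glmQLFTest (R 4.3.3, edgeR 4.0.16) with bear and season as terms and Benjamini-Hochberg adjustment over all genes. A standard error is the absolute log2 fold change over the square root of F. Levels as log2 CPM used a prior count of 2. The bear was a term because the study's methods say both samples came from the same animal. After the season means were subtracted, the summer and winter libraries of a bear correlated at 0.0903 to 0.344 (5 of 6 over 0.1). A summer and a winter library of different bears correlated at most at 0.142. Libraries of different bears within a season were not correlated. Libraries of one season were not copies of each other (lowest chi-square per gene 39.1). Alternatives were no block, RLE, library totals, no filter, filterByExpr, DESeq2 1.42.0, limma voom (limma 3.58.1), each bear left out, and the study's stricter limits (adjusted p below 0.01, fold above 1.3 or below 0.77).

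Members and lists were chosen with earlier results of these data known. Named genes were every member and, per list, up to 4 called rises and 4 called falls of the largest size and the 2 uncalled genes with the highest mean level, plus 5 genes nearest to the called member of largest change, of which 1 is not reported here. Symbols listed only by LOC number were matched by gene ID to RefSeq's table of UrsArc2.0 (AOX1, KMO, MYH1 and MYH7). The 10 marker lists other than fibre covered slow and fast fibre, fibroblast, endothelium, leukocyte, adipocyte, Schwann, satellite, smooth muscle and proliferating cells. The 4 not given in the results had 0 higher genes each in edgeR. Lower were 1 of 4 Schwann, 2 of 2 satellite, 3 of 4 smooth muscle and 2 of 2 proliferating cell markers.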

Additional observations from a re-analysis of the deposited data

Results flagged for a closer look

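Dixon's test at the 95% level was used to ask whether the highest or lowest of a season's 6 libraries stood apart from the other 5, gene by gene. Of 96 sets of 6 libraries, 6 did so, and chance gives about 1 in 20. NMNAT1 lay at 3.35 log2 CPM in the summer library of bear 1316, on 212 reads, and at 4.01 to 4.39 in the other summer libraries. In the winter library of bear 1509 PARP1 lay at 5.31, PARP3 at 4.11 and PARP16 at 2.44 log2 CPM, beside 5.57 to 5.72, 5.15 to 5.33 and 2.87 to 3.11 in the other winter libraries. USP22 lay at 7.06 in the winter library of bear 1305 (others 6.41 to 6.64) and ACSS2 at 7.62 in the summer library of bear 1317 (others 6.59 to 6.98). Without bear 1317 ACSS2 was still lower in winter (log2 fold change −0.57, adjusted p = 0.0141), and without bear 1509 PARP16 was still higher (0.68, adjusted p = 0.006).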

How the results depend on the processing

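Over 14 alternatives SIRT1 (log2 difference 0.79 to 0.93, adjusted p from 2.96e-09 to 0.00161), SIRT3 (−0.73 to −0.63, 1.04e-12 to 0.00216) and NAMPT (0.76 to 0.90, 6.3e-14 to 0.00118) kept direction and call, 3 of the 4 called members. Of 25 called related genes named, 17 did. Counts as low as the 16 to 68 reads of SIRT6 limit what a comparison can show. Where a call changed, the cause was not tested.

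Without the replicate block, that is without pairing by bear, 1 member was lower in place of 2, by edgeR and by DESeq2, since SIRT5 was not called (−0.46, adjusted p = 0.102, and −0.45, adjusted p = 0.0946). SIRT2 was called in DESeq2 only (0.36, adjusted p = 0.0436). Without the block 0 regulators of SIRT1 were lower and 2 zinc-dependent deacetylases higher, the latter also in DESeq2. In DESeq2 with the block, NAD synthesis gave 1 higher and 1 lower gene and sirtuin substrates 2 higher. Under the stricter limits all genes gave 2115 higher and 2325 lower, the members 1 lower, NAD synthesis 1 higher and 1 lower, nicotinamide disposal 0 lower, the list of NAD phosphorylation 1 lower, other NAD-consuming enzymes 2 lower and SIRT1 regulators 0 lower.

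With each bear left out in turn, members higher ranged from 2 to 3 and lower from 1 to 3. NAD synthesis gave 1 to 2 higher and 1 to 3 lower, nicotinamide disposal 1 to 2 lower, NAD-consuming enzymes 2 to 4 lower, ADP-ribose removal 0 to 1 higher, SIRT1 regulators 0 to 1 lower and substrates 1 to 2 higher. The log2 difference ranged from 0.26 to 0.50 for SIRT2, −0.57 to −0.40 for SIRT5, −0.47 to −0.19 for NMNAT1 and −0.0896 to 0.0592 for SIRT4.

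Signs turned only for genes that were not called. SIRT4 was at −0.077 with library totals, −0.011 with no filter and −0.0099 in limma voom. NADSYN1 was at 0.00032 without the block, 0.00723 with RLE, 0.0114 with filterByExpr, 0.00741 and 0.00879 in DESeq2 with and without the block and 0.0052 in voom. With library totals NADK was at −0.049, SLC25A51 at −0.014, PARP1 at −0.025, PARP3 at −0.039, CTBP1 at −0.043 and USP22 at −0.039. With a bear left out they ranged from −0.0643 to 0.16 (NADSYN1), −0.11 to 0.025 (PNP), −0.0328 to 0.13 (NADK), −0.0064 to 0.16 (SLC25A51), −0.0029 to 0.14 (PARP1), −0.0745 to 0.29 (PARP3), −0.0909 to 0.29 (CTBP1), −0.0317 to 0.12 (USP22) and −0.19 to 0.0047 (SOD2).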
